A study of Mus musculus with 8 samples.

Results

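Drug and xenobiotic metabolizing enzymes are the cytochromes P450, flavin monooxygenases, aldehyde dehydrogenases, carboxylesterases, epoxide hydrolases, glutathione S-transferases, UDP-glucuronosyltransferases and sulfotransferases that act on drugs, pollutants and many of the body's own lipids and hormones. Genes were chosen by the first letters of their symbol in the platform annotation: Cyp1 to Cyp4, Gsta, Gstk, Gstm, Gsto, Gstp, Gstt, Gstz, Ugt, Sult, Fmo, Ces, Ephx or Aldh. This rule found 93 probes for 76 of the 9416 genes measured, and the probe with the highest mean over the arrays stood for each gene. The letters also admitted 6 P450 genes of higher family numbers (Cyp11b2, Cyp17a1, Cyp24a1, Cyp26b1, Cyp27a1 and Cyp39a1), which act mainly on steroids, oxysterols, vitamin D or retinoic acid; they were kept and are counted separately below.

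The data are bead arrays of total RNA from the epidermis of wild-type B6129 mice aged 7 to 8 weeks, with 2 animals in each of 4 groups. Female and male mice were shaved on the back and, 3 days later, received 1 application of 2 µg of the glucocorticoid fluocinolone acetonide (FA), a synthetic steroid used against skin inflammation, in 200 µl of acetone. Female and male controls received the acetone alone and are called vehicle here, so that shaving and the solvent were common to all 4 groups. Skin was taken 24 hours after treatment.

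Keratinocyte markers fitted the labelled tissue: all 8 basal markers, Krt5 and Krt14 among them, and 8 of 10 suprabasal markers were measured. The log2 of their summed signals ranged from 16.1 to 16.4 and from 16.8 to 17.0 over the 8 arrays. Such sums, here and below, are taken on the linear scale, so the brightest genes weigh most. Array 2 of the FA-treated females stood apart from the others. It detected 32.4% of all probes and 46 of the 76 enzyme genes, against 44.5% to 46.9% of probes and 60 to 64 enzyme genes on the other 7 arrays, and its signal floor was 5.88 against 4.90 to 4.99 log2 units. Of the enzyme genes, 40 were detected on all 8 arrays, 36 on 2 to 7 of them, and 9 on every array but that one.

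Foreign lipophilic compounds are typically handled in steps. P450 and other oxidising enzymes first add or expose a reactive group, and conjugating enzymes then couple glutathione, glucuronic acid or sulfate to it, which makes the product easier to excrete. Many P450 and conjugating genes are inducible through ligand-activated transcription factors. The epidermis also uses these families on its own substrates, among them arachidonic acid, retinoids, cholesterol, vitamin D and the long fatty acids of the skin barrier, and glucocorticoids act through a receptor that binds DNA at palindromic elements built from AGAACA and its reverse complement.

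Of the 76 genes, 12 were higher and 9 were lower with FA (mean of the effects in both sexes, limma, Benjamini-Hochberg adjusted p under 0.05 over all genes). Among all 9416 genes 9.40% were higher and 11.4% were lower by the same rule, and 20.8% passed in either direction. The share of the enzyme genes that passed was 27.6%. All 4 FA arrays lay above all 4 vehicle arrays for 10 of the enzyme genes and below them for 9. Over all genes the shares were 11.6% and 14.6%. Such gaps are stated gene by gene below as description only. The median FA effect was 0.03 over the enzyme genes and -0.02 over all genes on the log2 scale. With array 2 of the FA-treated females left out, 19 genes were higher and 9 lower, where 11.6% of all genes were higher and 11.8% lower. With array 1 left out 18 were higher and 16 lower, and the shares of all genes moved with them, to 16.8% and 21.3%. Of the 55 genes that did not pass, 10 changed the sign of their effect without array 2. A run without 1 array leaves 1 animal in that group, and the spread there comes from the other groups. This limits every call given here or below without array 2. Scaling the arrays to a common median in place of quantile normalization gave 15 higher and 7 lower, where 985 and 956 of all genes were. In bulk tissue, fewer cells of a type and less RNA per cell cannot be told apart.

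P450 genes of families 1 to 4 passed in 1 direction: 8 of 17 were higher and none was lower, with a median effect of 0.57. Glutathione S-transferases went mostly the other way, with 1 of 18 higher, 6 lower and a median of -0.23. Aldehyde dehydrogenases held 2 lower genes of 15. One of 5 carboxylesterases and 1 of 5 sulfotransferases were higher, 1 of 4 UDP-glucuronosyltransferases was lower, and none of 3 flavin monooxygenases and 3 epoxide hydrolases passed. Of the 6 P450 genes of higher family number 1, Cyp27a1, was higher. Without these 6 the counts were 11 higher and 9 lower of 70.

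**Figure D1:**
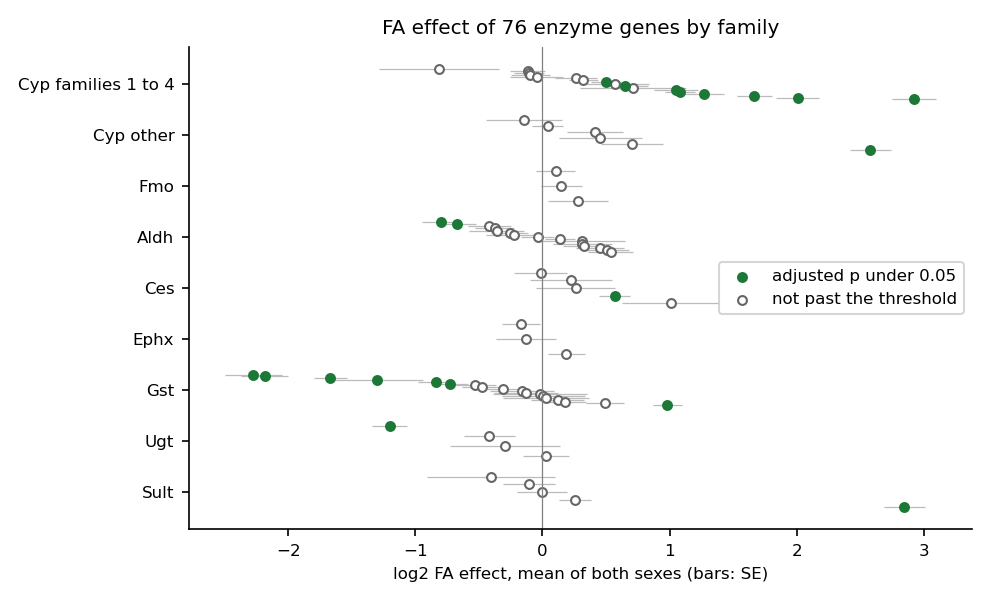
Log2 FA effect (mean of both sexes, x axis) of each of the 76 enzyme genes by family (y axis); bars are standard errors and filled points passed an adjusted p under 0.05. The filled points of P450 families 1 to 4 all lie to the right of 0, whereas 6 of the 7 filled Gst points lie to the left.

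Cyp2b10, Cyp2b23, Cyp2b19 and Cyp2a5 rose together and lie in 1 cluster, Gstm2 and Gstm1 are neighbours that moved in opposite directions, and Gsta1 and Gsta2 showed the largest falls. Their promoters are printed here for those reasons. Each is the 250 bases before an annotated start, in the direction of transcription, from RefSeq on GRCm38.p6, and capitals mark a match to AGAACA or TNGCGTG on either strand.
Cyp2b10 (chr7:25897408-25897657, plus strand): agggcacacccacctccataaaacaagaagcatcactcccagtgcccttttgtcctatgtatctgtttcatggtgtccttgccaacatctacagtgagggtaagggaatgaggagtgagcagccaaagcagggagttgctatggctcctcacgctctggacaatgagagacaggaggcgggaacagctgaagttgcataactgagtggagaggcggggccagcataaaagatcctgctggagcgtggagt
Cyp2b23 (chr7:26686431-26686680, minus strand): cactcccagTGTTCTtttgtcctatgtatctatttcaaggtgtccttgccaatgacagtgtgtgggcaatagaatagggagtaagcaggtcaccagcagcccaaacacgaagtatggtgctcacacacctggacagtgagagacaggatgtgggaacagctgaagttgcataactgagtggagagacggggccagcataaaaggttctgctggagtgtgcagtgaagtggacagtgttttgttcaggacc
Cyp2b19 (chr7:26756892-26757141, plus strand): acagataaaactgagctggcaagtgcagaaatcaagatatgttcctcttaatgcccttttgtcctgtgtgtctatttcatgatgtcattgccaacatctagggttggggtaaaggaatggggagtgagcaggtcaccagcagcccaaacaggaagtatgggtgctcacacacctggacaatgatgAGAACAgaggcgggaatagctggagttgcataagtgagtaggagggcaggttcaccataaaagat
Cyp2a5 (chr7:26835089-26835338, plus strand): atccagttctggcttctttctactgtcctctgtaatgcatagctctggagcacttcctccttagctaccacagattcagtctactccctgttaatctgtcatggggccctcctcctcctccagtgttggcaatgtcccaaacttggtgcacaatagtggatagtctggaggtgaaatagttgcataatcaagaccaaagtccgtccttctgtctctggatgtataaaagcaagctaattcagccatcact
Gstm2 (chr3:107986421-107986670, minus strand): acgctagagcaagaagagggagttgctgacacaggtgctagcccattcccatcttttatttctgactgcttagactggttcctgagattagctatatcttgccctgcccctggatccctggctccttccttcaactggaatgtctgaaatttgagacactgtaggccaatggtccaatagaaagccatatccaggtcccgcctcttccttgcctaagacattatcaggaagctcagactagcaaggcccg
Gstm1 (chr3:108017974-108018223, minus strand): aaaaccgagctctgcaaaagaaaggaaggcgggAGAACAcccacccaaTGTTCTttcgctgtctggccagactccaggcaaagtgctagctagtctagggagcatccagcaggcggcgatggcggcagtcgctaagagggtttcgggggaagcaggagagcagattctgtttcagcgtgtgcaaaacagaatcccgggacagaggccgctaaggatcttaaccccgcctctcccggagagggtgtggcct
Gsta1 (chr9:78230419-78230668, plus strand): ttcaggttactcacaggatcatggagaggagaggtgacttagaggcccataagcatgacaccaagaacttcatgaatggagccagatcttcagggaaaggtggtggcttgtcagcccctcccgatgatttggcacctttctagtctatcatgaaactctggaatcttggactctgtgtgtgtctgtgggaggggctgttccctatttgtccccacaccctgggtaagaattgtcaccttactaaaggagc
Gsta2 (chr9:78347146-78347395, minus strand): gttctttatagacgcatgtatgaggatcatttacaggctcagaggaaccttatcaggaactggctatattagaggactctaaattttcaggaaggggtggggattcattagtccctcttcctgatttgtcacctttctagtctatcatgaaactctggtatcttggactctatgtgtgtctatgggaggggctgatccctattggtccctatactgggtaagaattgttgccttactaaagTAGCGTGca

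Promoter windows, which run from 250 bases before to 50 after a start, were found for 59 of the 76 genes under the same symbol. AGAACA, the 6-base element of the glucocorticoid receptor, occurred on either strand in the windows of 16 of these 59 genes and in 19% of all 32851 windows. It was found for 6 of the 11 matched genes that rose (Ces2g, Cyp2b19, Cyp2b23, Cyp4b1, Gstm1 and Sult1a1) and for none of the 6 matched genes that fell; a gene may have several windows, and this is a description with no test. In Cyp2b19 the match lay 65 to 60 bases before the start, in Cyp2b23 it lay 241 to 236 bases before it on the other strand, and Gstm1 held 2 matches, 217 to 212 and, on the other strand, 202 to 197 bases before. Those are in the printed Gstm1 window; a second annotated start of Gstm1 has no match in its 250 bases. The full palindrome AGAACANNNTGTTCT was in the window of none of the 59 genes and in 3 of all windows. TNGCGTG, the core letters recognised by the aryl hydrocarbon receptor, was found for 4 genes, among them Aldh18a1 and Gsta2, which fell, and in 5.07% of all windows. TGACNNNGC, the antioxidant element bound by Nrf2, was found for 4 genes, none of which passed the test, and in 12.4% of all windows. In Gsta2 the TNGCGTG match lay 9 to 3 bases before the start.

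Cyp2b10, the mouse P450 best known for its induction by phenobarbital in liver, rose most. Its log2 signal was 7.70 and 8.34 in vehicle females, 11.00 and 10.81 in FA females, 8.87 and 8.60 in vehicle males and 11.83 and 11.57 in FA males. All 4 FA arrays lay above all 4 vehicle arrays, and the FA effect was 2.93 ± 0.17 (standard error), a 7.60-fold rise (limma adjusted p = 0.00011). A second probe for Cyp2b10, detected on 3 arrays only, gave -0.12 ± 0.16, so the 2 probes disagree and the rise rests on 1 of them.

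Cyp2b23, for which no role is given here, measured 5.48 and 5.24 in vehicle females, 7.09 and 6.77 in FA females, 5.65 and 5.22 in vehicle males and 8.09 and 7.67 in FA males. The groups did not overlap, and the effect was 2.01 ± 0.17 (adjusted p = 0.000345). Cyp2b19, a keratinocyte P450 that oxidises arachidonic acid, measured 9.64 and 10.09 in vehicle females, 10.67 and 10.81 in FA females, 9.63 and 9.18 in vehicle males and 11.12 and 11.02 in FA males. Again every FA array lay above every vehicle array, and the effect was 1.27 ± 0.16 (adjusted p = 0.00187). Cyp2a5, the mouse coumarin hydroxylase, measured 5.48 and 5.23 in vehicle females, 7.21 and 7.25 in FA females, 4.98 and 5.19 in vehicle males and 6.73 and 6.38 in FA males. It rose by 1.67 ± 0.14 (adjusted p = 0.000315) with no overlap, and its second probe, detected on 2 arrays, gave 0.56 ± 0.21 (adjusted p = 0.103). The Cyp2b genes are close relatives, and since probe sequences were not used here, cross-hybridisation between them was not tested.

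In the order of RefSeq genes on GRCm38.p6, these 4 genes stand in the Cyp2 cluster of mouse chromosome 7, which holds 7 of the 76 genes. Running along the chromosome, the FA effects were -0.10 ± 0.15 for Cyp2s1, 2.93 for Cyp2b10, 2.01 for Cyp2b23, 1.27 for Cyp2b19, 0.71 ± 0.42 for Cyp2g1, 1.67 for Cyp2a5 and 0.57 ± 0.27 for Cyp2f2. Cyp2s1, a P450 of epithelia, Cyp2g1, known from the olfactory mucosa, and Cyp2f2, known from the airway, did not pass (adjusted p = 0.695, 0.270 and 0.181). Thus 4 of the 7 measured genes of the cluster passed, and differences in effect between its genes were not tested. With array 2 of the FA-treated females left out, which leaves 1 array in that group, the effects were 1.14 for Cyp2g1, 0.80 for Cyp2f2 and -0.12 for Cyp2s1.

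**Figure D2:**
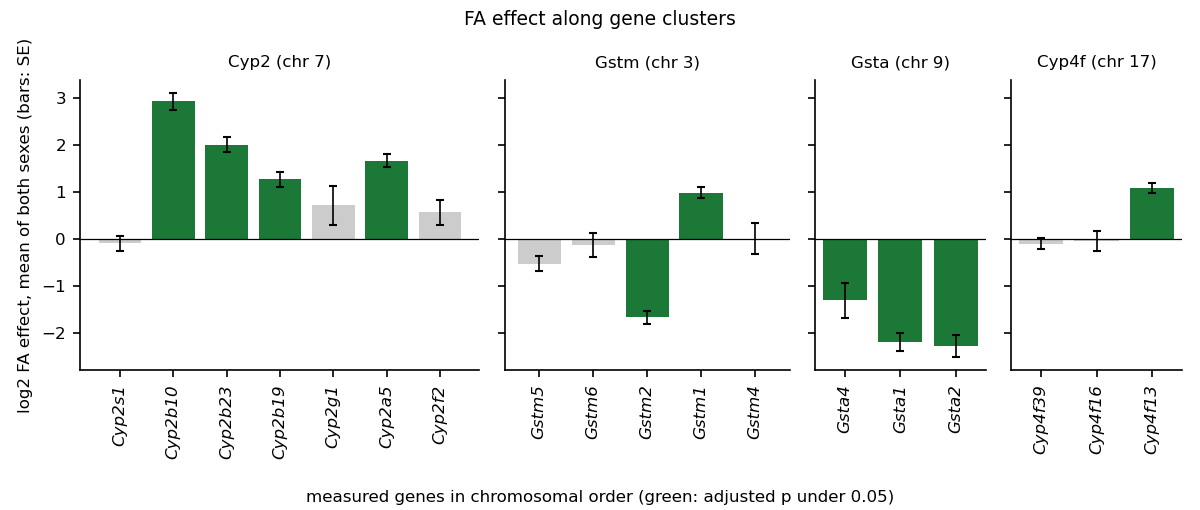
Log2 FA effect (mean of both sexes, y axis; bars with standard errors) of the measured enzyme genes of 4 gene clusters in chromosomal order (x axis), with green bars for an adjusted p under 0.05 and grey ones otherwise. In the Cyp2 cluster 4 of 7 genes were higher, in the Gsta cluster 3 of 3 were lower, and in the Gstm cluster the neighbours Gstm2 (-1.67) and Gstm1 (0.98) lie on opposite sides of 0.

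Cyp4 enzymes mainly hydroxylate fatty acids. Cyp4f13 measured 9.56 and 9.36 in vehicle females, 10.49 and 10.50 in FA females, 9.20 and 9.34 in vehicle males and 10.47 and 10.33 in FA males, a rise of 1.08 ± 0.12 without overlap (adjusted p = 0.000969). Cyp4b1, which acts on fatty acids and on some foreign compounds, measured 6.28 and 6.57, 7.39 and 7.04, 6.33 and 5.74, and 7.39 and 7.30 in the same order of groups and rose by 1.05 ± 0.17 (adjusted p = 0.00623), also without overlap. Their relatives did not pass: Cyp4f39, the mouse counterpart of the human enzyme that makes the ultra-long hydroxy fatty acids of barrier ceramides, had an effect of -0.11 ± 0.12 (adjusted p = 0.564), Cyp4f16 one of -0.04 ± 0.21, and Cyp4v3 one of 0.26 ± 0.16. Along chromosome 17, Cyp4f39, Cyp4f16 and Cyp4f13 follow each other in that order among other genes, and of these 3 only Cyp4f13 rose.

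Cyp2j9, of a subfamily that makes epoxides from arachidonic acid, measured between 8.07 and 8.32 on the vehicle arrays and between 8.60 and 8.81 on the FA arrays. That rise of 0.50 ± 0.12 (adjusted p = 0.0239) was small, but the groups did not overlap; it was lost without any 1 array other than vehicle male 1 and the FA females (adjusted p from 0.0612 to 0.0913). Cyp2d22, the mouse relative of the human drug-metabolizing CYP2D6, lay near the floor, with 5.01 and 4.83 in vehicle females, 5.64 and 4.92 in FA females, 4.98 and 4.88 in vehicle males and 5.98 and 5.78 in FA males. Here the groups overlapped through array 2 of the FA-treated females, and the rise was at least 1.53-fold (adjusted p = 0.0393). "At least" marks a fold computed against the arrays' signal floor because the lower group's mean lay under it or was not detected. The Cyp2d22 call was lost without any 1 array other than the FA females (adjusted p from 0.0878 to 0.126).

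**Figure D3:**
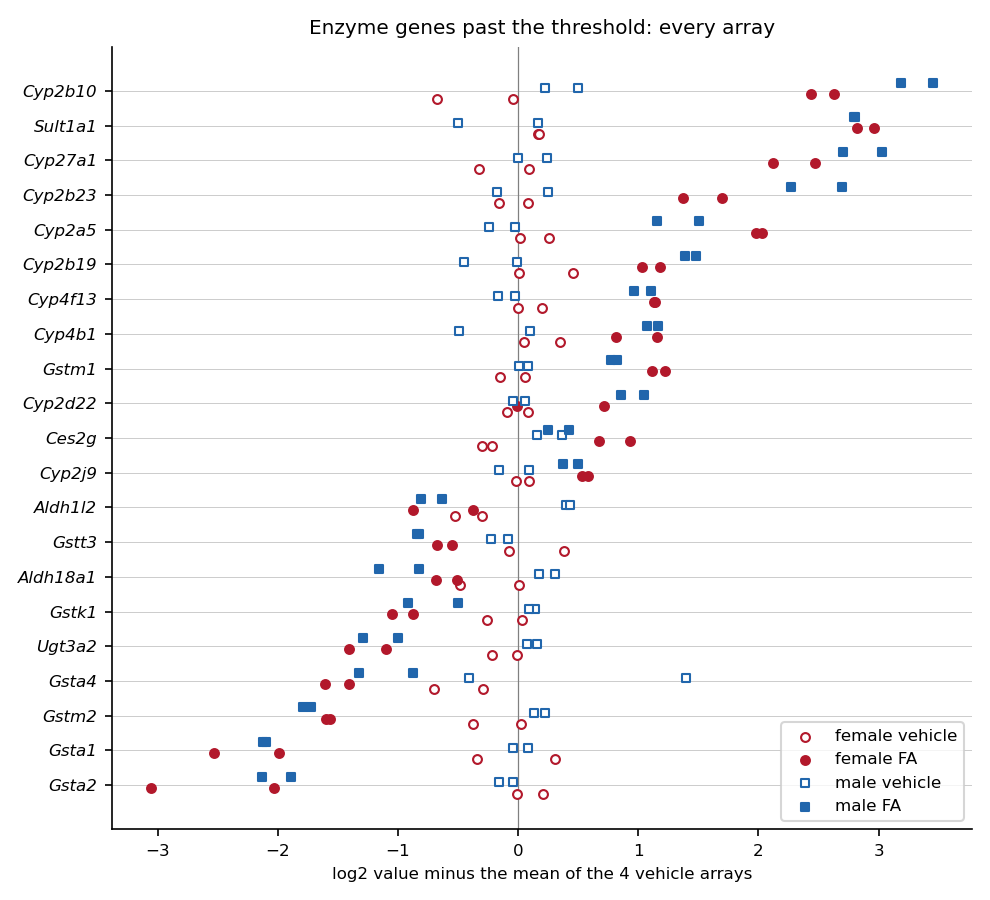
Log2 signal minus the gene's mean over the 4 vehicle arrays (x axis) for the 21 enzyme genes that passed an adjusted p under 0.05 (y axis); each point is 1 array, circles are females, squares males, open points vehicle and filled points FA. The 4 FA arrays lie entirely above or below the 4 vehicle arrays for 18 genes, with Cyp2d22, Ces2g and Aldh1l2 as the exceptions. The genes were chosen by a test on these same arrays, so the gaps are description only. Over all genes measured, 11.6% had such a gap above and 14.6% below.

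The remaining P450 genes of families 1 to 4 did not pass. Cyp1b1, a well-known target of the aryl hydrocarbon receptor, was lower by point estimate, at -0.81 ± 0.47 (adjusted p = 0.266), with values from 6.79 to 7.51 on vehicle arrays and 4.75, 6.24, 6.66 and 7.77 on FA arrays, so that the groups overlapped. Without array 2 of the FA-treated females, on which it was not detected, the effect was -0.34. Cyp2e1, the ethanol-inducible P450, was detected only on the 2 arrays of FA-treated males, at 4.99 and 5.11 (effect 0.32 ± 0.11, adjusted p = 0.087). Cyp3a13, the only measured gene of the major drug-metabolizing family 3, had an effect of -0.12 ± 0.13 (adjusted p = 0.575).

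Among the P450 genes admitted by their letters, Cyp27a1 rose. It encodes the mitochondrial sterol 27-hydroxylase, which also acts on vitamin D. It measured 7.20 and 7.61 in vehicle females, 10.00 and 9.64 in FA females, 7.76 and 7.52 in vehicle males and 10.55 and 10.23 in FA males, a 5.98-fold rise with no overlap (2.58 ± 0.16, adjusted p = 0.000124). Its 3 probes gave 2.38, 2.58 and 2.74. Cyp26b1, which breaks down retinoic acid, had an effect of 0.71 ± 0.25 (adjusted p = 0.0823), Cyp39a1, an oxysterol hydroxylase, one of 0.42 ± 0.22 (adjusted p = 0.223), and Cyp24a1, which inactivates vitamin D, one of 0.46 ± 0.33 (adjusted p = 0.366). Cyp24a1 was detected on 2 of the 8 arrays only. Without array 2 of the FA-treated females the effect was 0.67 for Cyp39a1, which then passed (adjusted p = 0.00736), and 0.06 for Cyp24a1.

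Glutathione S-transferases couple glutathione to reactive molecules, and the alpha class fell most. Gsta1 measured 8.63 and 7.98 in vehicle females, 6.34 and 5.80 in FA females, 8.29 and 8.41 in vehicle males and 6.23 and 6.21 in FA males. Every FA array lay below every vehicle array, a fall of 2.19 ± 0.19 on the log2 scale (adjusted p = 0.000378). Gsta2 measured 7.74 and 7.95, 5.72 and 4.69, 7.59 and 7.70, and 5.61 and 5.86 in the same order, and fell by 2.28 ± 0.22 (adjusted p = 0.000676), again without overlap. Gsta1 and Gsta2 are nearly identical in sequence, and whether their probes measure 2 transcripts or 1 was not tested. The longest run of bases that their printed promoters have in common is 29 long.

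Gsta4, which detoxifies the lipid peroxidation product 4-hydroxynonenal, measured 5.97 and 5.56 in vehicle females, 4.85 and 4.65 in FA females, 5.85 and 7.66 in vehicle males and 5.39 and 4.94 in FA males. The groups did not overlap, but the 2 vehicle males lay far apart, and the fall was at least 1.95-fold (adjusted p = 0.0444). Without vehicle male 2, the high array, the effect was -0.85, and the call was lost without either vehicle female or either FA male (adjusted p from 0.0903 to 0.147). Gsta3, from a different part of the genome, had an effect of 0.12 ± 0.21 (adjusted p = 0.714), so that 3 of the 4 measured alpha genes were lower.

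The mu class of chromosome 3 split. Gstm2 measured 10.64 and 10.24 in vehicle females, 9.02 and 9.05 in FA females, 10.84 and 10.74 in vehicle males and 8.89 and 8.83 in FA males, a 3.18-fold fall (-1.67 ± 0.13, adjusted p = 0.000242). Its other probes gave -1.59 and -1.28. Gstm1, the next protein-coding gene along the chromosome, measured 7.40 and 7.19, 8.56 and 8.45, 7.42 and 7.34, and 8.16 and 8.11 in the same order, a 1.98-fold rise (0.98 ± 0.11, adjusted p = 0.00133). Neither gene's groups overlapped. Gstm5 had an effect of -0.53 ± 0.16 (adjusted p = 0.0571), Gstm6 one of -0.13 ± 0.25 and Gstm4 one of 0.01 ± 0.33, and none of these passed.

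Gstk1, the kappa enzyme of mitochondria and peroxisomes, measured 9.11 to 9.51 on vehicle arrays and 8.32 to 8.87 on FA arrays and fell by 0.84 ± 0.14 (adjusted p = 0.00745). Gstt3, of the theta class, measured 9.55 to 10.16 on vehicle arrays and 8.94 to 9.23 on FA arrays and fell by 0.72 ± 0.14 (adjusted p = 0.0113, and 0.0514 without vehicle male 1). Neither overlapped between the groups. The pi-class genes did not pass, with -0.31 ± 0.13 for Gstp1 (adjusted p = 0.126) and -0.48 ± 0.16 for Gstp2 (adjusted p = 0.0708). A second Gstp1 probe, detected on 7 arrays, gave -0.74 ± 0.33 (adjusted p = 0.163). Gstp1 and Gstp2 are close relatives whose probes may share targets. Gsto1, an omega-class enzyme, had an effect of 0.49 ± 0.15 (adjusted p = 0.0552) and passed when array 2 of the FA-treated females was left out. Gstz1, which isomerises maleylacetoacetate in tyrosine breakdown, had an effect of -0.16 ± 0.25 (adjusted p = 0.687).

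Sult1a1, a sulfotransferase that conjugates phenols, rose almost as much as Cyp2b10. It measured 6.48 and 6.50 in vehicle females, 9.14 and 9.28 in FA females, 6.48 and 5.82 in vehicle males and 9.12 and 9.12 in FA males. The 4 FA arrays lay close together and far above the vehicle arrays, and the rise was 7.19-fold (2.85 ± 0.16, adjusted p = 9e-05). Sult2b1, which makes the cholesterol sulfate of the outer epidermis, measured 9.58 to 10.40 on vehicle arrays and 9.95 to 10.18 on FA arrays, with an effect of -0.00 ± 0.19 (adjusted p = 0.995). The other Sult genes had effects between -0.40 and 0.26, and none passed.

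Ugt3a2 was detected on all 4 vehicle arrays, at 5.51 and 5.72 in females and 5.80 and 5.89 in males, and on none of the 4 FA arrays. Its fall was at least 1.47-fold (adjusted p = 0.00122). Ugt1a genes are alternative first exons spliced to common exons, so a probe in the common part would not tell them apart. Ugt1a6a had an effect of -0.30 ± 0.43 (adjusted p = 0.664), and 0.25 ± 0.17 without array 2 of the FA-treated females, on which it was not detected. Ugt1a2 had one of 0.03 ± 0.18, and Ugt1a10 is described with the sexes below.

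Aldehyde dehydrogenases oxidise aldehydes to acids, although some members have other substrates. Aldh18a1, an enzyme of proline synthesis, measured 5.95 and 5.47 in vehicle females, 5.44 and 5.27 in FA females, 6.26 and 6.12 in vehicle males and 5.12 and 4.79 in FA males. These groups did not overlap, and the fall was at least 1.52-fold (adjusted p = 0.0122). Aldh1l2, the mitochondrial formyltetrahydrofolate dehydrogenase, measured 4.99 and 4.77, 4.42 and 4.92, 5.70 and 5.72, and 4.49 and 4.66 in the same order. It was not detected on any FA array, overlapped between the groups, and fell at least 1.08-fold (adjusted p = 0.019). The Aldh18a1 call was lost without vehicle male 1 or FA male 2 (adjusted p from 0.0505 to 0.0535), and the Aldh1l2 call without vehicle female 1, either vehicle male or either FA male (adjusted p from 0.0516 to 0.0769).

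The aldehyde dehydrogenases known from skin and eye did not pass. Aldh3a2, the fatty aldehyde dehydrogenase whose loss causes Sjögren-Larsson syndrome in humans, had an effect of 0.54 ± 0.18 (adjusted p = 0.0713), and passed when array 2 of the FA-treated females was left out. Aldh2, the main acetaldehyde-oxidising enzyme of mitochondria, had one of -0.42 ± 0.17 (adjusted p = 0.123), and Aldh3a1, abundant in the cornea, one of -0.36 ± 0.21 (adjusted p = 0.275). Aldh1a2, which makes retinoic acid, was detected on 2 arrays only, with -0.04 ± 0.13 (adjusted p = 0.863). The 13 aldehyde dehydrogenases that did not pass lay between -0.42 and 0.54.

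Carboxylesterases split ester and amide bonds, including those of many prodrugs. Ces2g measured 7.03 and 6.94 in vehicle females, 7.92 and 8.18 in FA females, 7.40 and 7.61 in vehicle males and 7.50 and 7.67 in FA males. Both female FA arrays thus lay above all vehicle arrays, as did FA male 2 (7.67) but not FA male 1 (7.50). A second Ces2g probe, detected on 7 arrays, gave 0.41 ± 0.21 (adjusted p = 0.229). The mean rise of the chosen probe was 0.57 ± 0.12 (adjusted p = 0.0189), and Ces2g did not pass once all its probes were averaged. This rise was the call examined next. It was lost without either vehicle female, vehicle male 1 or FA male 2 (adjusted p from 0.06 to 0.0737). Ces1d had an effect of 0.22 ± 0.32 (adjusted p = 0.656). The flavin monooxygenases Fmo1, Fmo2 and Fmo5, which oxidise nitrogen and sulfur in drugs, had effects of 0.15 ± 0.16, 0.28 ± 0.24 and 0.10 ± 0.15. The epoxide hydrolases Ephx1, which acts on foreign epoxides, and Ephx2, which acts on fatty acid epoxides, had effects of 0.19 ± 0.14 and -0.13 ± 0.24. Of these 6 genes none passed, but Fmo2 did without array 2 of the FA-treated females (0.55, adjusted p = 0.0288), and Ces1d and Ephx2 then had effects of 0.53 and -0.39 without passing (adjusted p = 0.135 and 0.0875). Ces4a, named after its values were seen, had an effect of 1.01 ± 0.38 (adjusted p = 0.102), and 1.48 (adjusted p = 0.000233) without that array.

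Within females, 8 enzyme genes were higher and 6 lower with FA, or 14 of 76, where 10.0% of all genes passed in either direction, 4.57% higher and 5.46% lower. Within males, 9 were higher and 6 lower, or 15 of 76, against 8.19% of all genes, 4.01% higher and 4.17% lower. Passing in both sexes were 7 rises (Cyp2b10, Cyp2b23, Cyp2a5, Cyp4f13, Cyp27a1, Gstm1 and Sult1a1) and 4 falls (Gsta1, Gsta2, Gstm2 and Ugt3a2). All 21 genes that passed in the mean effect had the same sign in both sexes, which a choice by that mean favours in itself. Among all 76 genes, 24 had opposite signs. These counts depended on single arrays, and the shares of all genes moved with them. The female count was 8 without vehicle female 1 (2.29% of all genes), 7 without vehicle female 2 (2.36%) and 33 without FA female 1 (31.9%). The male count was 24 without either FA female (15.9% of all genes), since all groups share 1 estimate of spread. It was 9, 7 and 7 without vehicle male 1, vehicle male 2 and FA male 1 (2.77%, 2.21% and 2.8%), and 10 without FA male 2 (2.57%).

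**Figure D4:**
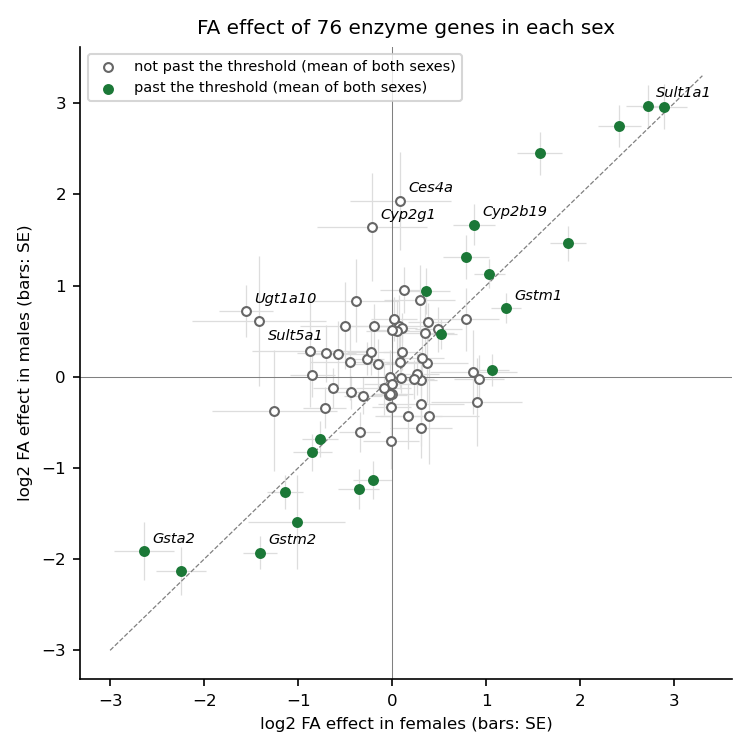
Log2 FA effect in females (x axis) against males (y axis) for the 76 enzyme genes, with filled points for an adjusted p under 0.05 in the mean of both. The 2 axes share no arrays; Cyp2b10 (2.89 and 2.96), Sult1a1 (2.72 and 2.97) and Gsta1 (-2.24 and -2.13) lie near the diagonal while Ugt1a10 (-1.55 and 0.72) lies on opposite sides of 0.

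None of the 76 genes had FA effects that differed between the sexes by limma's test of that difference, which 0.0212% of all genes passed, 0.0212% with a more positive effect in males and 0% with a more positive effect in females; at an unadjusted p under 0.05 the count was 10, where 6.56% of all genes were. By leaving out FA female 1, which leaves the array that stood apart alone in its group, the count became 17, and 12.1% of all genes passed. The smallest p was that of Ugt1a10, a glucuronosyltransferase known in humans from the gut. It measured 8.23 and 8.29 in vehicle females, 7.08 and 6.32 in FA females, 8.38 and 8.54 in vehicle males and 9.44 and 8.91 in FA males. Female arrays with FA lay below, and male arrays with FA above, those of all vehicle animals. The effects were -1.55 ± 0.29 in females (adjusted p = 0.018) and 0.72 ± 0.29 in males (adjusted p = 0.18), and their difference was 2.27 ± 0.40 (adjusted p = 0.497). Next by p were Ces2g, with 1.06 ± 0.18 in females, 0.07 ± 0.18 in males and a difference (male minus female) of -0.99 ± 0.25 (adjusted p = 0.634), and Aldh1l2, with -0.21 ± 0.21, -1.13 ± 0.21 and -0.93 ± 0.30 (adjusted p = 0.714).

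Between vehicle males and vehicle females none of the 76 genes passed, where 0.0743% of all genes did, 0.0319% higher and 0.0425% lower in males; 5 were under an unadjusted p of 0.05, as were 5.79% of all genes. Cyp2g1 had the smallest p. It measured 11.06 and 11.15 in vehicle females and 7.79 and 8.82 in vehicle males, a difference of -2.80 ± 0.59 (adjusted p = 0.313), and 11.75 and 10.04 with FA in females and 10.38 and 9.51 in males. The sexes did not overlap in vehicle but did with FA. Without either FA female, which changes only the shared estimate of spread, Cyp2g1 passed (adjusted p = 0.0141), as did 0.489% of all genes. Aldh1l2 and Cyp3a13 followed, with 0.83 ± 0.21 (adjusted p = 0.525) and -0.59 ± 0.19 (adjusted p = 0.69). Cyp3a13 was lower in males with FA too, at 8.29 and 8.22 against 8.90 and 9.11 (-0.75 ± 0.19, adjusted p = 0.216). Summed signals of markers of other cell types did not overlap between the vehicle sexes either. The log2 of the sum was 10.4 to 10.6 in females and 11.8 to 12.3 in males for dermal fibroblast markers. For skeletal muscle markers it was 10.6 to 11.9 and 12.6 to 12.7. Sums of sebaceous gland, hair follicle, dendritic epidermal T cell, and neutrophil, macrophage and mast cell markers were also higher in males without overlap. Erythrocyte markers went the other way, at 9.26 to 9.28 in females and 8.73 to 9.02 in males. The part of these cell types in the differences of Cyp2g1, Aldh1l2 and Cyp3a13 was not tested.

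With FA, 1 of the 76 genes was higher in males and none lower, where 0.202% of all genes passed, 0.191% higher and 0.0106% lower; 20 were under an unadjusted p of 0.05, as were 12.4% of all genes. That gene was Ugt1a10, at 2.47 ± 0.29 (adjusted p = 0.0409). The call held when array 2 of the FA-treated females was left out (2.09, adjusted p = 0.0129) but was lost without any 1 array of the vehicle females, vehicle males or FA males (adjusted p from 0.106 to 0.17). Without FA female 1 the count was 24, and 21.5% of all genes passed. Ces4a, chosen here after its values were seen, measured 6.84 and 4.95 in FA females and 8.85 and 8.40 in FA males, with 5.69 and 5.93 in vehicle females and 6.57 and 6.81 in vehicle males. Its sex difference with FA was 2.72 ± 0.53 (adjusted p = 0.131), and 1.78 without array 2 of the FA-treated females, on which it was not detected. Gstp3, Sult5a1 and Cyp1b1, likewise picked after their values were seen, had sex differences with FA of 1.93 ± 0.48, 1.68 ± 0.71 and 1.30 ± 0.66 and did not pass (adjusted p = 0.213, 0.402 and 0.459); none of the 3 was detected on that array either, and without it the differences were 1.25, 0.46 and 0.34. Markers of the sebaceous gland, 13 of 17 of them measured, also had a lower sum in FA females than in FA males. The log2 of their summed signals was 15.1 to 15.2 in vehicle females and 14.0 to 14.5 in FA females. In males it was 15.2 with vehicle and 14.9 to 15.4 with FA, so the male groups overlapped. Other lists differed between the FA sexes too. Skeletal muscle sums were 8.80 to 9.98 in FA females and 13.3 to 14.2 in FA males. Hair follicle sums were 9.79 to 10.4 and 10.9 to 11.3. Dendritic epidermal T cell sums went the other way, at 9.99 to 10.1 and 9.58 to 9.67. The part of these cell types in these sex differences was not tested.

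**Figure D5:**
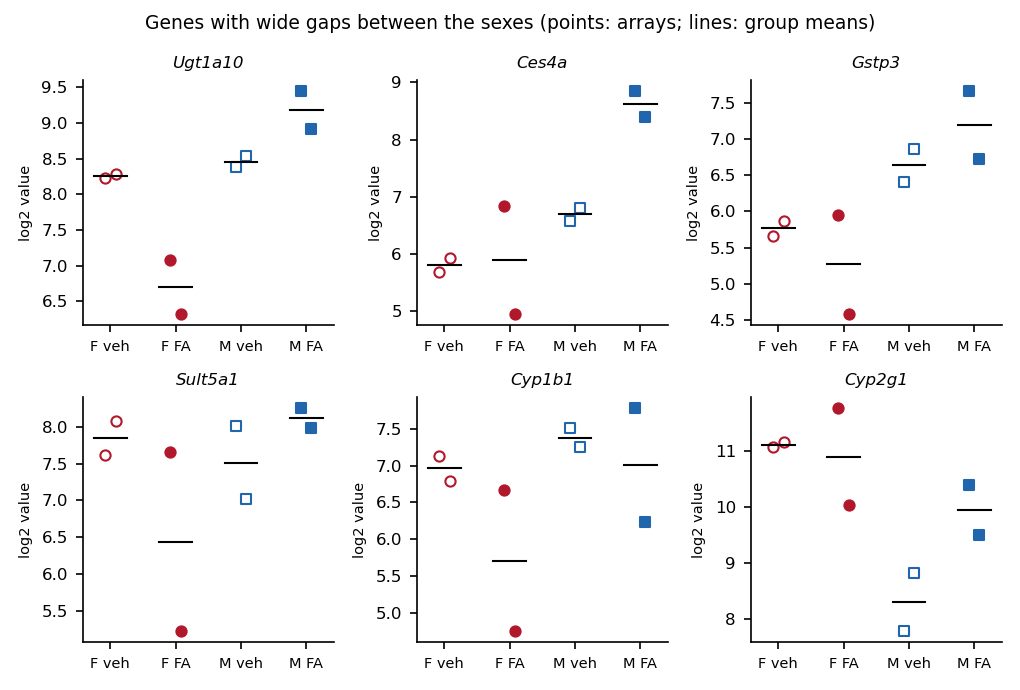
Log2 signal (y axis) on each array of 6 enzyme genes with wide gaps between females and males, chosen after their values were seen, with group means as lines. Ugt1a10 and Ces4a lie higher in FA males than in FA females, and Cyp2g1 lies lower in vehicle males (7.79 and 8.82) than in vehicle females (11.06 and 11.15).

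Related genes outside the rule were read from lists chosen for their place in the pathway. None of 7 measured xenobiotic receptors and regulators passed, with a median FA effect of -0.13, but 6 of the 13 listed were not measured here, among them the receptor genes Ahr, Nr1i2, Nr1i3 and Ppara. Of the electron donors of P450, 1 of 3 passed, Cyb5b, a cytochrome b5 of the mitochondrial outer membrane, which fell by 1.14 ± 0.16 (adjusted p = 0.00339). Of 8 genes that supply cofactors for conjugation, 1 passed: Papss1, which makes the activated sulfate that sulfotransferases use, fell by 0.74 ± 0.11 (adjusted p = 0.00455), while Sult1a1 rose. Of 6 transporters 1 passed, the prostaglandin carrier Slco2a1, which fell by 1.04 ± 0.18 (adjusted p = 0.00759).

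Of 18 other enzymes of drug oxidation and conjugation, 3 were higher and 4 lower. Xdh, xanthine dehydrogenase, rose by 1.42 ± 0.19 (adjusted p = 0.00258), and the alcohol dehydrogenases Adh1 and Adh7 each by 0.77 (adjusted p = 0.00445 and 0.00414). Maob, which oxidises amines, fell by 1.94 ± 0.14 (adjusted p = 0.000166). The microsomal glutathione transferases Mgst1, Mgst2 and Mgst3, unrelated in sequence to the soluble ones above, fell by 1.84 ± 0.33, 1.65 ± 0.24 and 1.17 ± 0.18 (adjusted p = 0.00915, 0.00354 and 0.00522). Thus all 3 measured Mgst genes fell, beside 6 of the 18 soluble transferases. Mgst1 is also on the list of sebaceous markers, and in males its effect alone was -0.92 ± 0.47 (adjusted p = 0.292).

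Markers of other cell types moved with FA. Of the measured Langerhans and dendritic cell markers, 7 of 8 were lower. The log2 of their summed signals was 13.2 to 13.5 on vehicle arrays, 11.1 to 11.3 in FA females and 10.4 to 11.3 in FA males. For dendritic epidermal T cells 5 of 6 were lower, with sums of 10.9 to 11.2 with vehicle and 9.58 to 10.1 with FA. Dermal fibroblast markers were lower for 4 of 9, with sums of 10.4 to 10.6 with vehicle and 9.02 to 9.97 with FA in females, and of 11.8 to 12.3 and 9.97 to 10.8 in males. Sebaceous gland markers were lower for 3 of 13 measured, and erythrocyte markers for 1 of 3, with sums of 8.73 to 9.28 and 6.92 to 7.49. Of 8 skeletal muscle markers none passed, but their sum ranged from 8.80 to 9.98 in FA females and from 13.3 to 14.2 in FA males. Markers of neutrophils, macrophages and mast cells were higher for 3 of 7 (S100a9, C1qa with 1.23 ± 0.18 and C1qb with 1.11 ± 0.33) and lower for 2 (Adgre1 and Lyz2, both -1.31), with sums of 9.17 to 10.9 with vehicle and 9.89 to 10.8 with FA. Basal keratinocyte markers were higher for 3 of 8 and lower for 2, Krt5 (-1.16 ± 0.15) and Krt14 (-0.61 ± 0.14). Suprabasal ones were higher for 1 of 8 and lower for 1, Krt1 (-3.05 ± 0.22 in females and -2.96 ± 0.22 in males). The part of these cells in the rises above was not tested. Nor was their part in the falls of Gsta1, Gsta2, Gsta4, Gstm2, Gstk1, Gstt3, Ugt3a2, Aldh18a1 and Aldh1l2.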

How the data were processed

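The 8 samples of mouse epidermal RNA were each run on 1 Illumina bead array. Per the file headers, the deposited unprocessed table pairs a bead intensity with a detection p-value, per array, over 25697 probes. A deposited matrix gives 13247 of these probes as log2 values; per the submitters' processing notes the authors used limma, with no version given. Running neqc (normexp background correction, offset 16, quantile normalization) on the unprocessed table gave the authors' log2 values to within 5e-09, and both hold the same probes when a probe must be detected (p under 0.05) on 2 or more arrays.

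Values were computed again with R 4.3.3 and limma 3.58.1. Of the kept probes 12476 had 1 symbol and 771 none; the latter were left out, and 1 probe a gene left 9416 genes. The 4 groups were fitted as 4 means (lmFit, eBayes; 4 residual and 3.35 prior degrees of freedom), with two-sided tests, Benjamini-Hochberg adjusted over 9416 genes. Errors after ± are standard errors from this fit. Folds given as "at least" use the lowest value among each array's detected probes as floor. Arrays give no read depth; their number limits the precision.

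The genes, lists and named-gene rule (the 12 largest rises and falls past the threshold, any other gene past it in 1 sex or between sexes, the 3 smallest p where none passed, the smallest p of each family, and 35 genes with a known role in skin, 26 of them measured) were chosen with earlier results of these data known. Lists were described by counts and medians, with no set test. Probe sequences and protein sequences were not used here.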

Additional observations from a re-analysis of the deposited data

How the results depend on the processing

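Of the 21 genes that passed with FA, 13 passed under every alternative run: Cyp27a1, Cyp2a5, Cyp2b10, Cyp2b19, Cyp2b23, Cyp4b1, Cyp4f13, Gsta1, Gsta2, Gstk1, Gstm1, Gstm2 and Sult1a1, where Gsta1 and Gsta2 are not among the probes detected on all 8 arrays. The other 8 were lost under some, Gsta4 under 9, Cyp2d22 and Aldh1l2 under 8 each, Ces2g under 6, Cyp2j9 under 5, Aldh18a1 under 2 and Gstt3 and Ugt3a2 under 1 each, and 0 reversed. Leaving out 1 array at a time gave 9 to 19 higher genes, 6 to 16 lower, 7 to 33 in females, 7 to 24 in males, 0 to 17 for the difference of the effects, 0 to 1 between the sexes with vehicle and 0 to 24 between them with FA; the shares of all genes moved too, over 4.93% to 16.8%, 5.55% to 21.3%, 2.29% to 31.9%, 2.21% to 15.9%, 0% to 12.1%, 0.0212% to 0.489% and 0.0106% to 21.5%. Probes detected on all 8 arrays left 40 enzyme genes, of which 15 were higher and 4 lower. Of all genes kept in that run 1083 were higher and 964 lower. That run kept fewer than the 9416 genes and its total is not given here. No share of all genes therefore stands beside the 15 and 4. Array weights gave 23 genes in males, and 15.4% of all genes. The sex difference with FA counted 2 genes with no background correction, 0 with no filter, 0 with the replicate block, and 2 with values set to the floor. Over all genes fitted in each run, 89, 3, 10 and 34 passed, against 19 in the fit used above. The run with no filter fitted more than 9416 rows. Median scaling gave 15 higher and 7 lower, where 985 and 956 of all genes were. It moved the median FA effect of all genes in females from -0.04 to 0.15. Arrays with the same replicate number did not deviate together in every pair of groups (correlations from -0.03 to 0.23). The numbers are used here to name arrays, and whether they mark a shared batch was not tested. With the number as a replicate block, 14 genes were higher and 8 lower, where 9.46% and 10.8% of all genes were. In females 13 passed and in males 17, against 8.89% and 7.19% of all genes. Among named genes the block lost Gsta4 (adjusted p = 0.0651) and the sex difference of Ugt1a10 (0.0599). It gained Cyp26b1 (0.0414) and Aldh3a2 (0.0327). Averaging all probes of a gene moved Cyp2b10 from 2.93 to 1.40. With no background correction effects were smaller, with 1.02 for Cyp2b23, 0.75 for Cyp2a5, -1.37 for Gsta1 and -1.20 for Gsta2. The authors' matrix changed no call. The causes of these changes were not tested. Signal near background limits the 36 genes not detected on every array.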
